A study of Mus musculus with 18 samples.

Results

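The CLP fraction of mouse thymic lymphomas was set against the DN1 fraction of the same model, with 3 arrays of each, 6 of the 18 arrays of the series. The members are the arrays whose titles name the CLP or the DN1 lymphoma T-cell subpopulation, and each of 22180 genes was represented by 1 probe set. Per the labels, the lymphomas arose in sublethally irradiated mice with the Lck-Cre transgene after transplantation of bone marrow infected with a retrovirus for NPM-ALK, a fusion kinase known from anaplastic large cell lymphoma in people. Expression was meant to be confined to early T cells, because Lck-Cre acts in the T lineage. The lymphomas came from the thymus of moribund mice, were 3 in number per the series design, and were sorted by SCA1, KIT, IL7Rα, CD44, CD25, CD8, CD4 and lineage markers into CLP, DN1, DN2, DN3 and DN4. The labels state neither the gate of each fraction nor whether cells of the irradiated host were removed. LSK cells from the bone marrow of healthy wild-type mice aged 18 months served as controls, also on 3 arrays.

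Common lymphoid progenitors, abbreviated CLP, are normally found in the bone marrow, carry the IL-7 receptor with little KIT, and can still give rise to B, T and natural killer cells. DN1 cells are the earliest thymocytes: they lack CD4, CD8 and CD25 but carry CD44, and the early T progenitors among them carry much KIT. In the thymus, Notch ligands drive these cells through DN2 and DN3, where CD25 appears, CD44 is lost and the pre-T cell receptor is tested, to DN4. Normal CLP would therefore be expected to show more lymphoid and B-biased priming, and normal DN1 more Notch signalling.

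The description fields of the labels disagree with the titles. They name an aged mouse without NIPA, the product of Zc3hc1, for all 3 CLP arrays, 2 of them with 4 Gy irradiation, and an aged wild-type mouse with 4 Gy for all 3 DN1 arrays. The descriptions also give 4 Gy for LSK array 3 and for all DN2 and DN3 arrays. They give no dose for the other LSK arrays or for DN4. The titles, tissue and genotype fields were followed, and if the descriptions held, genotype and fraction could not be told apart. Zc3hc1 itself was at 8.08, 8.16 and 8.37 in CLP, against 7.94, 8.14 and 7.87 in DN1, on the log2 RMA scale of all levels given here. It did not pass the test (log2 difference 0.22, SE 0.17, limma adjusted p = 0.665). The 3 CLP arrays were less alike than the 3 DN1 arrays, with correlations across genes of 0.968 to 0.975 within CLP and 0.982 to 0.99 within DN1. Olfactory receptor genes, which blood cells hardly use, served as a gauge of background: the 95th percentile of 1105 such genes lay between 5.44 and 5.71 on the 6 arrays.

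In all, 541 of the 22180 genes (2.44%) differed between CLP and DN1 at an adjusted p under 0.05 (limma, Benjamini-Hochberg over all genes), 243 higher in CLP (1.1%) and 298 lower (1.34%). Of these, 417 differed at least 2-fold, 180 of them higher and 237 lower in CLP. The arrays of the groups did not overlap for any of the 541 genes, while 4065 of all genes (18.3%) showed no overlap, 10.1% with CLP higher and 8.2% with CLP lower. When 1 array was left out, the number of called genes was 232 without DN1 array 1 or 2, 253 without DN1 array 3, 353 without CLP array 2, 471 without CLP array 3 and 936 without CLP array 1. The median log2 difference of all genes was 0.04. Fewer cells of a type and less RNA per cell cannot be told apart in sorted bulk samples.

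**Figure D1:**
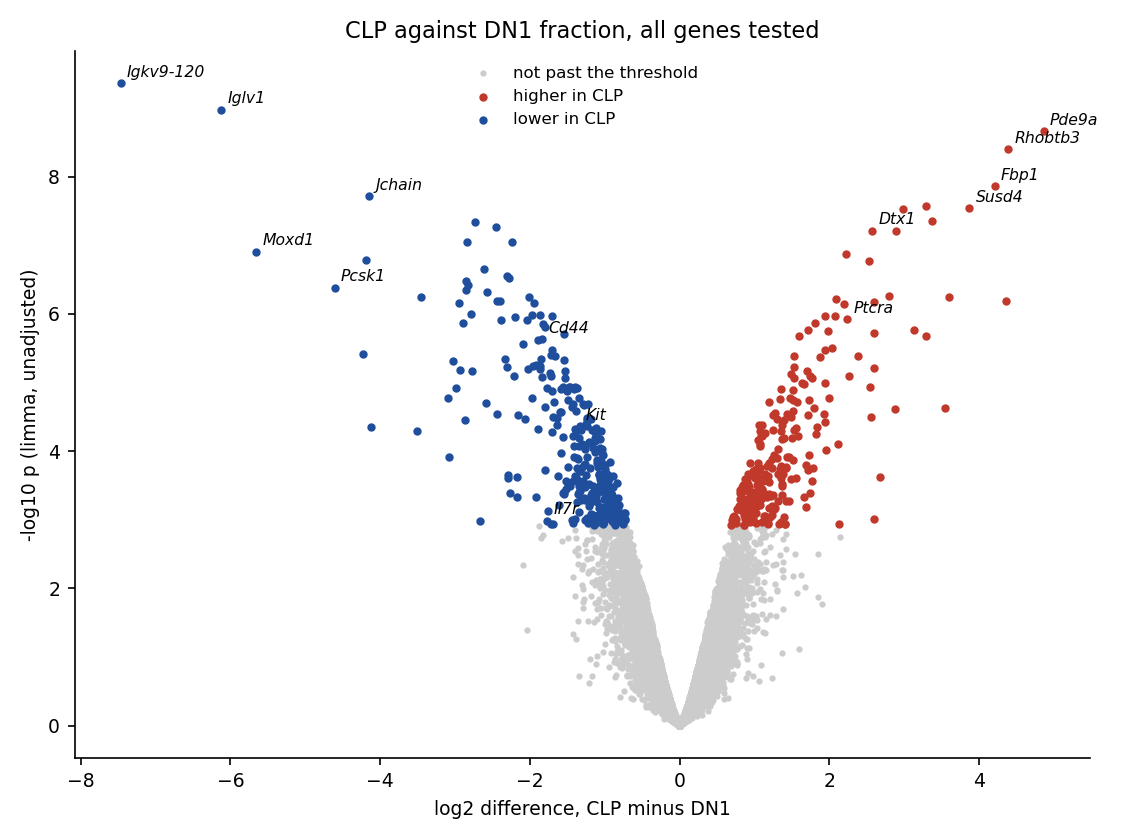
Each point is 1 of the 22180 genes, with the log2 difference of CLP minus DN1 on the x axis and the -log10 of the unadjusted limma p on the y axis. Red points (243) were higher and blue points (298) lower in CLP at an adjusted p under 0.05, and the gene farthest to the left is Igkv9-120 at -7.47.

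The sort marker genes serve to check the labels. Il7r, which encodes IL7Rα, was at 8.31, 6.97 and 8.68 in CLP, against 9.67, 9.71 and 9.88 in DN1 (log2 difference -1.76, SE 0.37, limma adjusted p = 0.0448). The marker that defines normal CLP was thus lower in the CLP arrays than in the DN1 arrays, although the call was lost without any 1 of the 3 DN1 arrays (adjusted p = 0.161 to 0.199). Kit was at 9.72, 9.36 and 9.22 in CLP and at 10.61, 10.90 and 10.79 in DN1 (difference -1.34, SE 0.18, limma adjusted p = 0.00568), the direction of normal cells. Cd44 was at 4.77, 4.92 and 4.75 in CLP, below the background gauge, and at 6.66, 6.38 and 6.88 in DN1, at least 2.02-fold lower in CLP (limma adjusted p = 0.00083). Il2ra, which encodes CD25, averaged 8.31 in CLP and 9.04 in DN1 and did not pass the test (adjusted p = 0.0984), with DN2 at 11.81 and DN3 at 12.02. Cd4 averaged 1.03 log2 units lower in CLP (limma adjusted p = 0.0329), a call lost without CLP array 2 or any 1 DN1 array (0.0898 to 0.154). Cd8a and Cd8b1 did not pass.

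**Figure D2:**
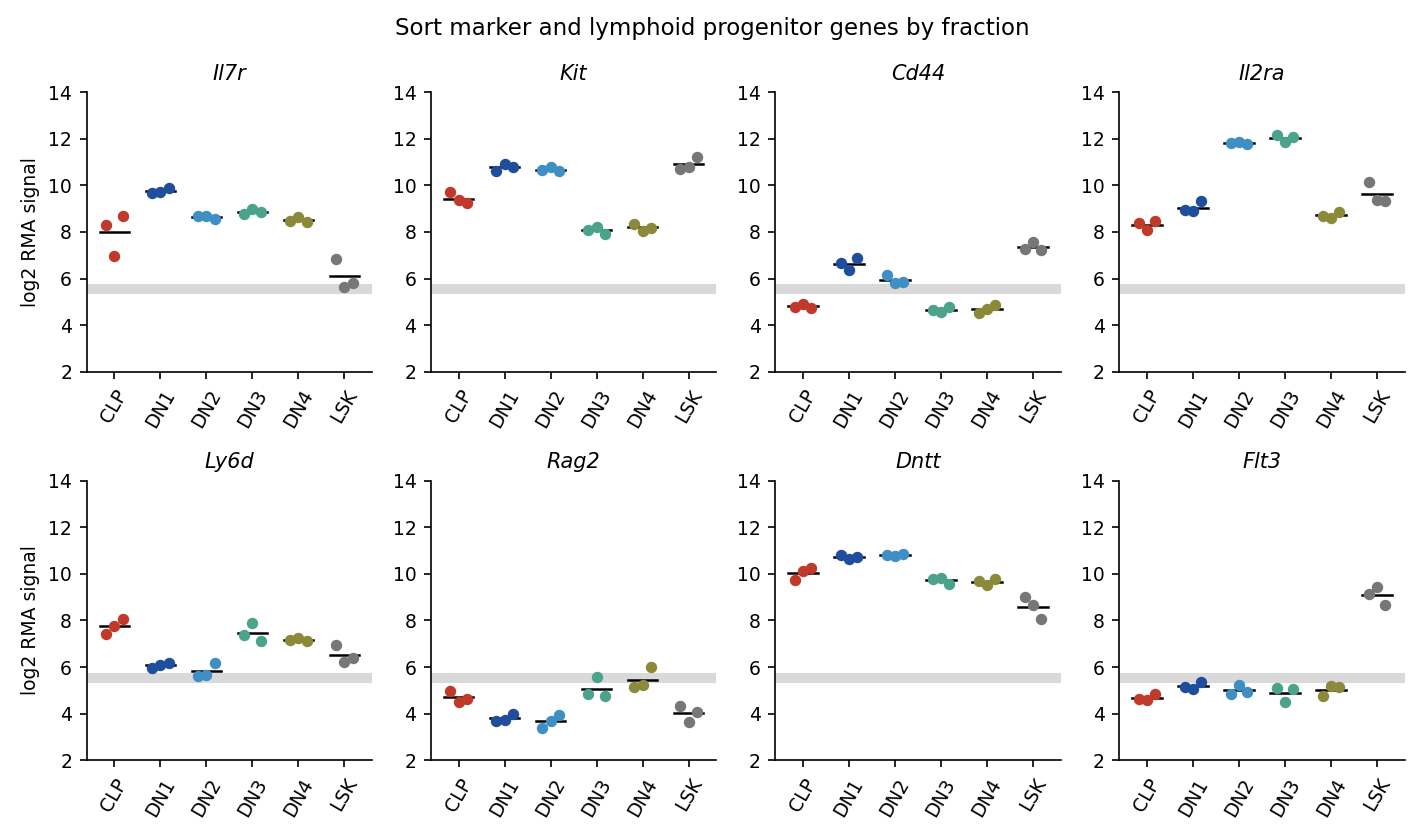
The log2 RMA signal of 8 sort marker and lymphoid progenitor genes is shown for each array, with the bar at the mean of 3 and the grey band at the background gauge over all arrays (5.36 to 5.71). Il7r, Kit and Cd44 lie lower in CLP than in DN1, Ly6d lies higher, and Flt3 lies above the band in LSK alone.

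Of 15 genes listed as more active in normal CLP, 14 were measured, of which 3 rose and 1 (Il7r, a sort marker gene) fell in CLP. The share called was 28.6%, against 2.44% of all genes. Ly6d, a surface protein of lymphoid progenitors that tend to the B lineage, was at 7.43, 7.75 and 8.06 in CLP, against 5.98, 6.09 and 6.18 in DN1 (difference 1.67, SE 0.19, limma adjusted p = 0.00226). All CLP arrays lay above all DN1 arrays, and the mean in DN3 was 7.47. Igll1, a surrogate light chain gene of B-cell precursors, was at 7.14, 7.55 and 7.28 in CLP and at 6.48, 6.18 and 5.65 in DN1 (difference 1.22, limma adjusted p = 0.0269). Rag2, part of the recombinase, passed (adjusted p = 0.037) but lay below the gauge in both fractions, so no fold is given. Igll1 lost its call without CLP array 2 or 3 or DN1 array 2 or 3 (0.0588 to 0.11), and Rag2 lost it without any 1 of the 6 arrays (0.053 to 0.176).

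The other genes of normal CLP identity did not pass. Flt3, the receptor that marks normal CLP, was at 4.61, 4.57 and 4.86 in CLP and at 5.15, 5.08 and 5.35 in DN1, below the gauge in both, while LSK averaged 9.09. Ebf1, a factor that starts the B-cell program, was also below the gauge on all 6 arrays. Dntt, which adds bases at receptor gene joints, was at 9.72, 10.10 and 10.24 in CLP and at 10.79, 10.65 and 10.73 in DN1 (difference -0.70, adjusted p = 0.0979). The list had a median log2 difference of -0.15, against 0.04 over all genes. Of 13 factors of early progenitors, among them Meis1, Hoxa9, Lmo2 and Tal1, 0 passed the limma test over all genes. An unadjusted p under 0.05 was reached by 1 of the 13, against 2930 of all 22180 genes. Cd34 averaged 5.00 in CLP and 5.24 in DN1, against 11.10 in LSK.

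Of 11 genes listed as more active in normal DN1, 10 were measured, and 5 passed (50%, against 2.44% of all genes). Kit and Cd44 were lower in CLP, but both encode sort markers, so their calls are not independent of the sort. Notch1, Dtx1 and Nrarp were higher, opposite to normal cells. Gata3, Thy1 and Cd2, genes of T-lineage commitment or identity, averaged 8.06, 9.61 and 9.23 in CLP and 7.92, 9.80 and 8.94 in DN1, and did not pass. Hes1, a direct Notch target, was at 6.77, 7.56 and 7.06 in CLP and at 7.02, 6.89 and 6.37 in DN1, with overlapping groups (adjusted p = 0.616).

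Of 14 Notch pathway genes, 6 were higher and 0 lower in CLP, with a median log2 difference of 0.77 against 0.04 over all genes. The share called was 42.9%, against 2.44% of all genes. The receptor Notch1 was at 11.07, 10.83 and 10.29 in CLP, against 9.15, 9.81 and 8.86 in DN1 (difference 1.46, SE 0.28, limma adjusted p = 0.0289). Notch3, a receptor that is itself a Notch target in thymocytes, was at 9.96, 9.61 and 9.04 in CLP and at 7.32, 7.99 and 7.46 in DN1 (difference 1.95, SE 0.26, limma adjusted p = 0.00521). Neither receptor showed overlap between the fractions. Among the targets, Dtx1, a ubiquitin ligase of the pathway, was at 9.85, 9.77 and 9.73 in CLP and at 7.04, 7.18 and 7.42 in DN1, 5.95-fold higher in CLP (limma adjusted p = 9.73e-05). Nrarp, a feedback inhibitor, was at 7.91, 8.35 and 8.14 in CLP and at 5.68, 6.43 and 5.47 in DN1, a 4.82-fold difference (limma adjusted p = 0.00188). Heyl, a repressor of the Hes family, was 2.99-fold higher in CLP (limma adjusted p = 0.00702). Lfng, which modifies Notch receptors, and the DNA-binding partner Rbpj averaged 7.32 and 7.42 in CLP, and 8.37 and 7.32 in DN1, and did not pass. Without CLP array 2, DN1 array 1 or DN1 array 3 the call of Notch1 was lost (0.103 to 0.144) and 5 Notch genes were higher, and without CLP array 3 Lfng was lower. The same genes averaged 10.96 (Notch1), 9.94 (Notch3), 10.19 (Dtx1) and 8.41 (Nrarp) in DN3.

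Ptcra, the Notch-dependent chain of the pre-T cell receptor, was at 7.72, 8.43 and 8.10 in CLP, against 5.76, 5.94 and 5.83 in DN1, 4.72-fold higher in CLP (limma adjusted p = 0.00054). DN2 averaged 7.04, DN3 8.97 and DN4 9.02, so CLP lay between DN2 and DN3 and DN1 close to the background gauge. Its promoter is shown because Ptcra was the only called Notch gene, of 5 with a promoter in the RefSeq table (GRCm38.p6), whose 300 bases held the letters TGGGAA, the core bound by RBPJ, searched on both strands. The window runs from 250 bases before to 50 after the gene's start, at chr17:46763663-46763962 on the minus strand, with the 2 matches in capitals. The letters occur in 28.3% of 27025 genes and in 4 of 10 matched genes of the list, and a match is a description of the sequence, not a bound site.
Ptcra: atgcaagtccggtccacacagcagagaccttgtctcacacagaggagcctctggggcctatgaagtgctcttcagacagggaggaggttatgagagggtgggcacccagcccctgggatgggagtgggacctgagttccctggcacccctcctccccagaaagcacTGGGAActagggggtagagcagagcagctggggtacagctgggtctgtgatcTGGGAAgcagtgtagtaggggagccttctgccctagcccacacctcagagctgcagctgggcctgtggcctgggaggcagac

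**Figure D3:**
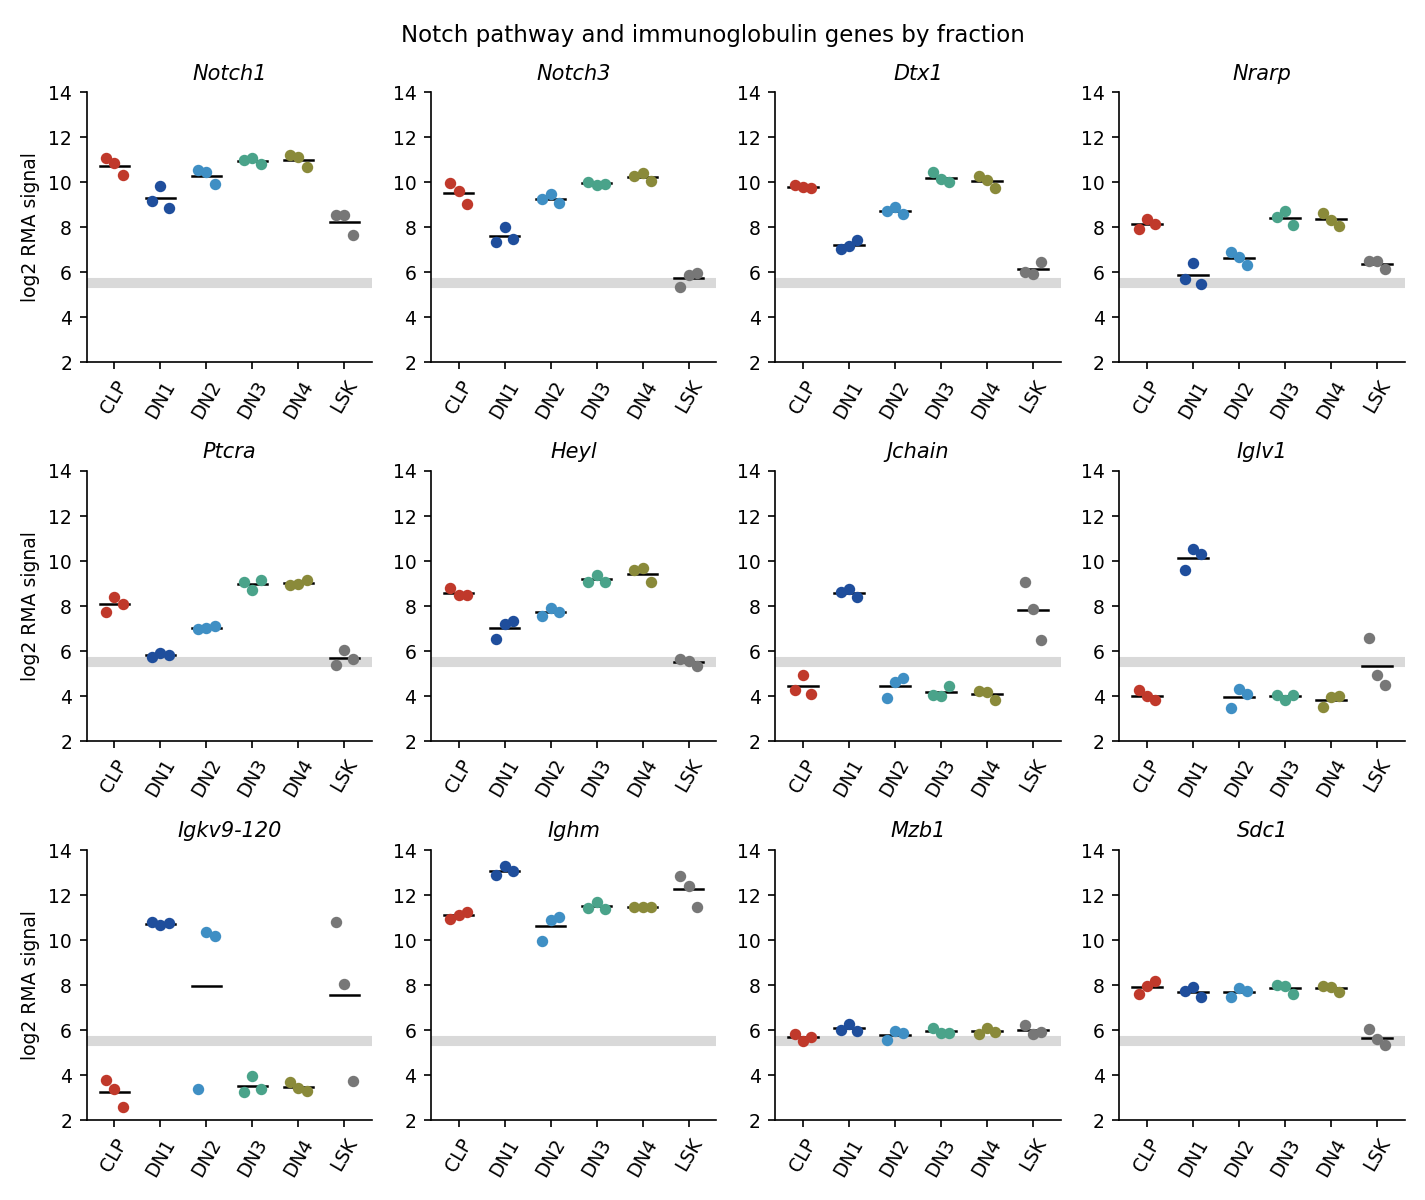
The log2 RMA signal of 6 Notch pathway genes and of 6 immunoglobulin or plasma cell genes is shown for each array, with the bar at the mean of 3 and the grey band at the background gauge. The 6 Notch genes lie higher in CLP than in DN1, and Jchain, Iglv1, Igkv9-120 and Ighm lie lower. Mzb1 and Sdc1 did not pass the test.

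Of 25 measured cell cycle genes, 10 were higher and 0 lower in CLP than in DN1, with a median log2 difference of 0.73. The share called was 40%, against 2.44% of all genes. The 10 were Mcm2, Mcm3, Mcm5 and Mcm7 of the replicative helicase, Cdc6, which loads it, Tk1, Tyms and Rrm2, which supply nucleotides, and the regulators Ccne1 and Cdk1. Mcm5 was at 10.66, 10.87 and 10.51 in CLP, against 9.33, 9.61 and 8.99 in DN1 (difference 1.37, SE 0.20, limma adjusted p = 0.00733). Cdc6 was at 9.30, 9.06 and 9.02 in CLP and at 8.07, 8.05 and 7.95 in DN1 (difference 1.10, SE 0.16, limma adjusted p = 0.00695). Groups did not overlap for either gene. The other 15 genes did not pass, and 24 of the 25 differences were positive. Among the mitotic genes of the 15, the kinase genes Aurkb and Bub1 averaged 9.98 and 8.34 in CLP and 9.12 and 7.53 in DN1, with no overlap of the groups (limma adjusted p = 0.0779 and 0.0594), and both passed without CLP array 1 (0.0117 and 0.026). Cdc20 and Ccnb2 averaged 9.03 and 9.35 in CLP and 8.99 and 9.60 in DN1. Ccnd2, a D-type cyclin, was the 1 of 12 G1 regulators that passed: it was at 7.56, 8.03 and 8.04 in CLP and at 5.74, 5.89 and 6.16 in DN1 (difference 1.95, limma adjusted p = 0.00112). Of the G1 regulators 8.33% were called, and without CLP array 1, 2 of them were higher and 1 lower. The count of cell cycle genes was 2 or 3 without CLP array 2 or 3 or any 1 DN1 array, and 15 without CLP array 1. Mcm2 lost its call in all of these but the last (0.0504 to 0.107), and Mcm3 without CLP array 2, DN1 array 1 or DN1 array 3 (0.0567 to 0.1). The count was also 2 with the replicate number as a block.

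Promoters of replication genes are known for E2F sites. The letters TTTCCCGC or TTTGGCGC, searched on both strands of the same windows, occurred in 4 of the 10 called cell cycle genes (Cdc6, Mcm3, Mcm5 and Mcm7), in 5 of 23 matched genes of the list and in 1.8% of 27025 genes. Those of Mcm5 and Cdc6, the genes with the smallest p of the list, and Mcm3, which holds 2 matches, are shown with the matches in capitals. They come from RefSeq (GRCm38.p6), for Mcm3 at chr1:20820263-20820562 on the minus strand, for Mcm5 at chr8:75109259-75109558 on the plus strand and for Cdc6 at chr11:98907901-98908200 on the plus strand.
Mcm3: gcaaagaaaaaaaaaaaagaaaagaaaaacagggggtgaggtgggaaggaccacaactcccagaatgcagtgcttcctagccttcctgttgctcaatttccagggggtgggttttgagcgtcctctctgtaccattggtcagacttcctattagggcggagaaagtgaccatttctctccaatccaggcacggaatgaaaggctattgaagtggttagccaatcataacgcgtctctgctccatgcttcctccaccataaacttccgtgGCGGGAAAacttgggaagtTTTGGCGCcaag
Mcm5: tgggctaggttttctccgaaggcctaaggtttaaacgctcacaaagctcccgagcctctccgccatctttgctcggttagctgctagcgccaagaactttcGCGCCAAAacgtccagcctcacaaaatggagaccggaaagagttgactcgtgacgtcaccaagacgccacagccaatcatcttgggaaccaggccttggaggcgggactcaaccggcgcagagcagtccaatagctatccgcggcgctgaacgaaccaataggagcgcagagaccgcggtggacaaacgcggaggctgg
Cdc6: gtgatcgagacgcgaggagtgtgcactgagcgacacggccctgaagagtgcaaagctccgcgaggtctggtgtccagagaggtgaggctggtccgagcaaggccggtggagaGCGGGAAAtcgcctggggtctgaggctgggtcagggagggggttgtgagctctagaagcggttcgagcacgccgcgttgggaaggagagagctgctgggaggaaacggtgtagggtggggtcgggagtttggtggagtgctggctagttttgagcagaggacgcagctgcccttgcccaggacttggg

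Of 18 measured T-lineage genes, 2 rose in CLP and 0 fell, 11.1% called against 2.44% of all genes. Cd5, which dampens T cell receptor signals, was at 9.12, 9.40 and 9.38 in CLP, against 7.97, 8.01 and 7.83 in DN1 (difference 1.36, SE 0.16, limma adjusted p = 0.00243). Lef1, a relative of Tcf7, was 1.83-fold higher in CLP (limma adjusted p = 0.0383), a call lost without any 1 of the 6 arrays (0.0576 to 0.171). The CD3 genes Cd3d, Cd3e and Cd3g averaged 12.42, 12.53 and 12.50 in CLP and 11.93, 12.18 and 11.99 in DN1 and did not pass. Both fractions thus held T-lineage transcripts at high levels, with the list at a mean of 9.76 to 9.90 over CLP arrays and 9.52 to 9.78 over DN1 arrays, against 6.27 in LSK. The median difference of the list was 0.18. The counts depended on the arrays: without CLP array 1, 2 genes of the list were higher and 2 lower in CLP, with Satb1 (0.0455) and Themis (0.0456) lower, and in the model of all 15 lymphoma arrays 4 were higher and 3 lower.

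Cytokine receptor genes divided in both directions: of 17 measured, 3 were higher and 6 lower in CLP, 52.9% called against 2.44% of all genes. Il4ra, the IL-4 receptor chain, was at 6.42, 7.16 and 6.87 in CLP, against 9.67, 9.86 and 9.39 in DN1, 7.1-fold lower in CLP (limma adjusted p = 0.000333). Il21r, the IL-21 receptor, was at 6.32, 6.17 and 6.33 in CLP and at 8.50, 8.55 and 8.51 in DN1, 4.73-fold lower in CLP (limma adjusted p = 0.000125). The IL-18 receptor genes were also lower: Il18r1 was below the gauge in CLP and at least 2.15-fold lower (limma adjusted p = 0.000398), and Il18rap was 1.21 log2 units lower (0.00799), a call lost without DN1 array 1 (0.0564). Il7r and Kit, which encode sort markers, made up the 6, and Il7r lost its call as given above. In the other direction, Il12rb2, a chain of the IL-12 receptor, was at 8.77, 9.15 and 9.25 in CLP and at 7.23, 7.63 and 7.62 in DN1 (difference 1.57, limma adjusted p = 0.00337). Il15ra and Il9r were higher in CLP by 1.51 and 1.05 log2 units (limma adjusted p = 0.00253 and 0.0163), and Il9r lost its call without CLP array 2 or DN1 array 2 or 3 (0.0559 to 0.0969). Il6ra averaged 5.86 in CLP and 7.10 in DN1 and did not pass.

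Other surface and signalling genes moved as follows. Genes linked to NPM-ALK lymphoma or STAT3 were called in 11.5%, and activation and checkpoint genes in 20%, against 2.44% of all genes. Of 26 genes linked to NPM-ALK lymphoma or STAT3, 3 were lower in CLP: Socs1, a feedback inhibitor of cytokine signalling (log2 difference -0.94, limma adjusted p = 0.0185), the kinase gene Pim1 (-0.99, 0.0169) and Il22, which lay below the gauge in both. Stat3 and Tnfrsf8, which encodes CD30, averaged 10.82 and 10.55 in CLP and 11.18 and 10.20 in DN1 and did not pass. Alk was below the gauge on all 6 arrays; where its probes lie relative to the part of the gene within the fusion was not checked. Of 20 activation and checkpoint genes, Icos and Slamf6 were higher in CLP, and Cd69 and Pdcd1, which encodes PD-1, were lower. Cd69, an early activation marker, was at 8.52, 9.12 and 8.61 in CLP, against 10.54, 10.40 and 10.47 in DN1 (difference -1.72, limma adjusted p = 0.00188). Icos was at 7.23, 7.78 and 6.63 in CLP and below the gauge in DN1, at least 3.13-fold higher in CLP (limma adjusted p = 0.0115). Without any 1 DN1 array the calls of Icos (0.0504 to 0.0694), Slamf6 (0.0538 to 0.0963), Socs1 (0.074 to 0.113) and Pim1 (0.0511 to 0.101, also without CLP array 2) were lost, and that of Pdcd1 without DN1 array 2 (0.0561). With the mean of all probe sets of a gene, Pim1 had an adjusted p of 0.465 and Slamf6 of 0.131.

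Of 16 homing and adhesion genes, 3 were lower and 0 higher in CLP, 18.8% called against 2.44% of all genes. Itgb7, an integrin chain of gut homing, was at 7.36, 7.15 and 6.64 in CLP, against 8.81, 8.75 and 8.71 in DN1 (difference -1.70, limma adjusted p = 0.00258). S1pr1, the receptor that guides cells out of the thymus, was at 5.67, 6.29 and 5.74 in CLP and at 7.26, 7.53 and 7.02 in DN1 (difference -1.38, limma adjusted p = 0.0121). Itga4, the partner of Itgb7, was 0.76 log2 units lower (0.048). S1pr1 lost its call without DN1 array 1 or 2 (0.0674 to 0.0744), which left 1 lowered gene of the list, and Itga4 without CLP array 2 or 3 or any 1 DN1 array (0.0804 to 0.182). Without CLP array 1, 5 genes of the list were lower. Of 12 interferon response genes (25% called), Ifi204 and Isg15 were higher and Ifitm3 lower in CLP. Ifi204, a DNA sensor, was at 9.95, 9.83 and 10.51 in CLP and at 7.43, 6.85 and 6.15 in DN1, 9.76-fold higher in CLP (limma adjusted p = 0.000772). The calls of Isg15 (0.0582 to 0.126) and Ifitm3 (0.0642 to 0.202) were lost without 5 of the 6 arrays, the exceptions being CLP array 1 for Isg15 and CLP array 3 for Ifitm3. Of 8 MHC class II genes (37.5% called), H2-Ab1 and H2-Aa were lower and H2-Oa, which tempers peptide loading, was higher in CLP. H2-Ab1 was at 5.87, 7.07 and 6.64 in CLP and at 8.68, 8.46 and 8.63 in DN1 (difference -2.06, limma adjusted p = 0.00482), and H2-Aa was at least 1.63-fold lower (0.00727). H2-Oa (difference 1.42, limma adjusted p = 0.0151) lost its call without CLP array 2 or DN1 array 2 or 3 (0.0528 to 0.079).

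**Figure D4:**
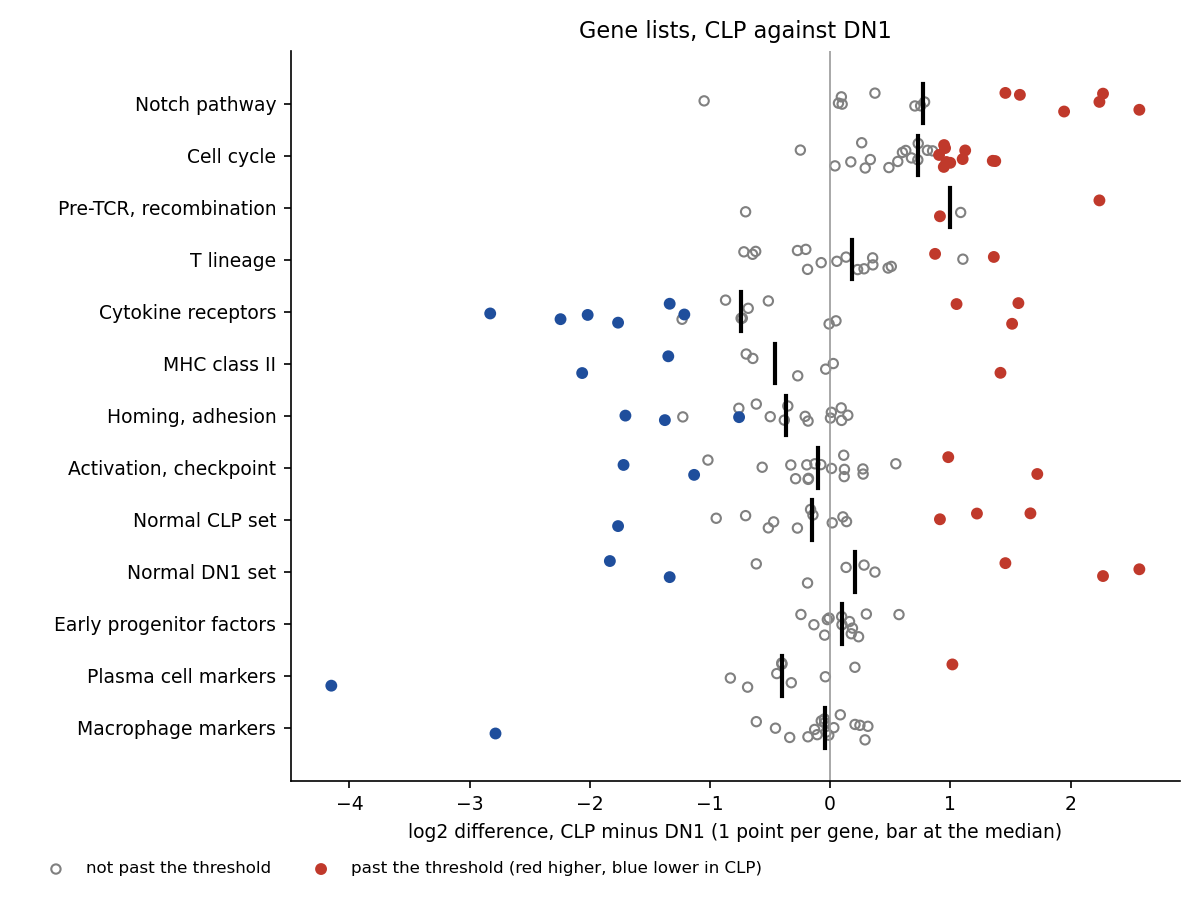
Each point is a gene of the list on the y axis, placed by its log2 difference of CLP minus DN1, with a black bar at the list's median. Filled points passed the limma test over all genes, red where higher and blue where lower in CLP. Filled points lie on the higher side alone in the Notch (6 of 14), cell cycle (10 of 25), pre-TCR and recombination (2 of 4) and T-lineage (2 of 18) lists.

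Of the 12 leading rises in CLP by size, Ifi204 is given above, and the others were genes outside these lists. Pde9a, a cyclic GMP phosphodiesterase, was at 9.61, 10.08 and 10.08 in CLP, against 4.71, 5.33 and 5.12 in DN1, at least 20.4-fold higher in CLP since DN1 lay below the gauge (limma adjusted p = 1.59e-05). Rhobtb3 was at 9.27, 9.0 and 9.73 in CLP and at 4.87, 5.09 and 4.85 in DN1, at least 13.6-fold higher in CLP (limma adjusted p = 2.21e-05). Fbp1, an enzyme of gluconeogenesis, was at 9.55, 10.14 and 10.44 in CLP and at 5.73, 5.92 and 5.85 in DN1, 18.5-fold higher in CLP (limma adjusted p = 6.07e-05). Every one of these CLP arrays lay more than 3 log2 units above every DN1 array. Susd4, a complement regulator, was 14.6-fold higher, and the factor gene Nfib 8.76-fold. Cpe, a carboxypeptidase that trims hormones, varied within CLP, at 7.48, 9.18 and 9.61, against 5.11, 5.22 and 5.29 in DN1. Apol11b, Lmcd1, Ttyh2, Aldh1b1 and Ppic completed the 12 leading rises with log2 differences of 2.88 to 3.60. In DN3, Pde9a, Rhobtb3, Fbp1 and Susd4 averaged 9.39, 9.12, 10.28 and 10.37.

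The leading falls included secreted and surface proteins. Moxd1, a relative of dopamine beta-hydroxylase, was at 6.67, 4.94 and 6.51 in CLP, against 11.66, 11.70 and 11.72 in DN1, 50.3-fold lower in CLP (limma adjusted p = 0.000162). Pcsk1, a prohormone convertase, was at 4.90, 6.57 and 6.14 in CLP and at 10.61, 10.27 and 10.54 in DN1, 24.4-fold lower in CLP (limma adjusted p = 0.000355). Both were spread over more than 1 log2 unit within CLP and were close together within DN1. Their means were 9.96 and 8.58 in DN2, and 4.74 and 4.46 in DN3. S100a6, a calcium-binding protein, and Lgals1, a galectin, were 8.52-fold and 7.42-fold lower in CLP (limma adjusted p = 0.00311 and 0.000584). The growth factor genes Tgfb3 and Pdgfc, the surface protein gene Ly6c1 and the lipid flippase gene Atp8b4 were also among the 12. Ddx5, an RNA helicase, was at 7.90, 5.81 and 7.87 in CLP and at 10.48, 10.30 and 10.03 in DN1, and averaged 9.94 to 10.47 in the other groups. Its call (difference -3.07, limma adjusted p = 0.012) was lost without any 1 DN1 array (0.0636 to 0.0716).

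**Figure D5:**
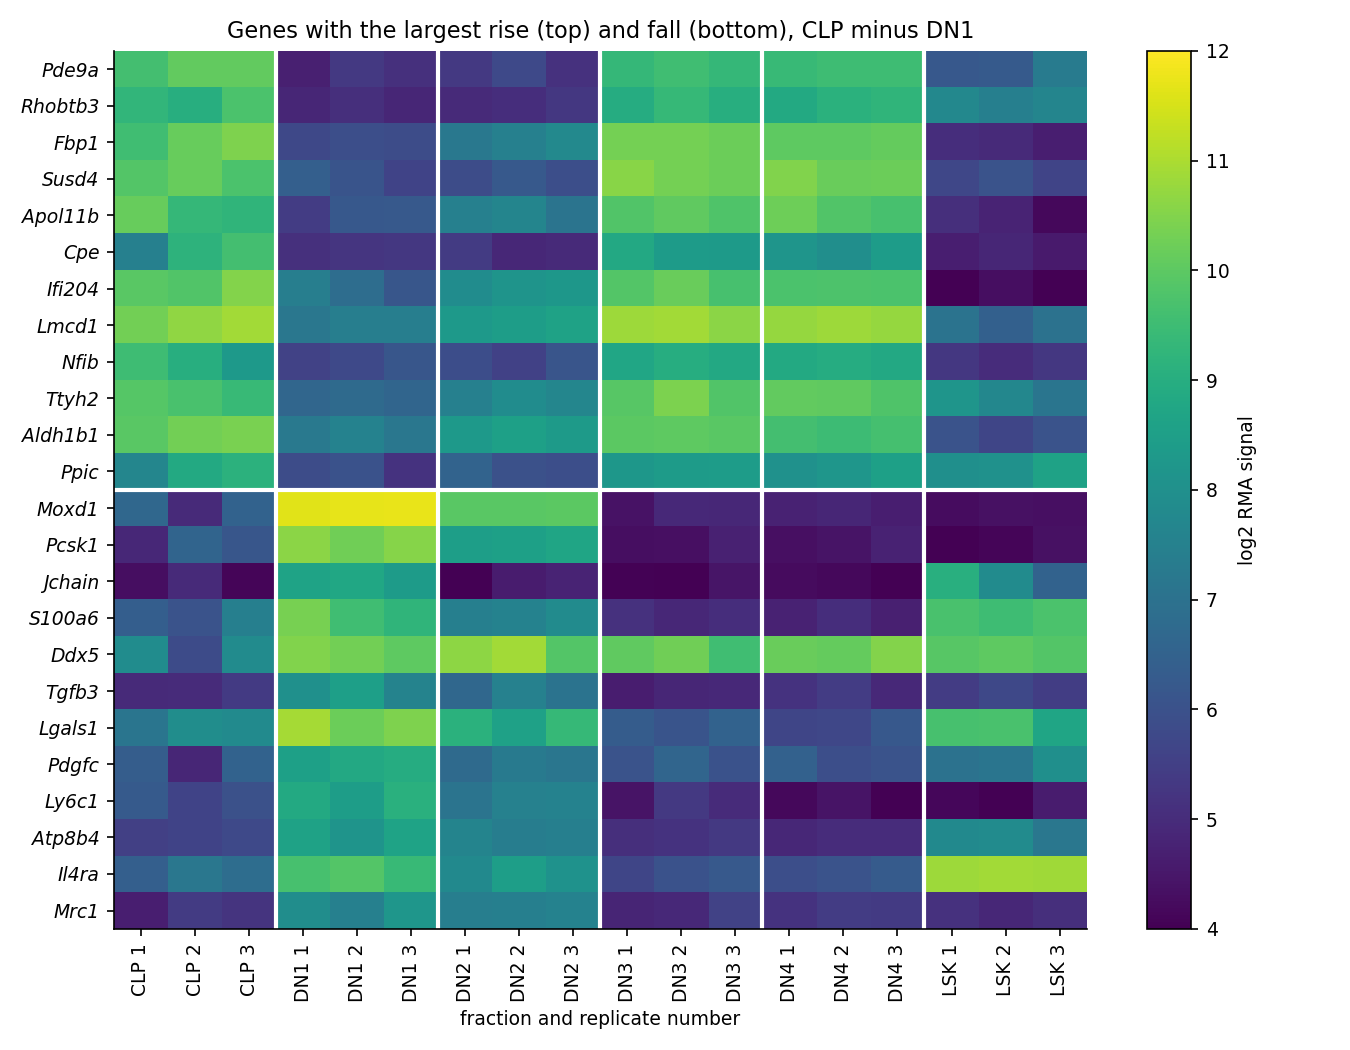
The log2 RMA signal of the 24 genes with the largest changes, 12 in each direction, is shown by colour for all 18 arrays, grouped by fraction. The genes were chosen on the CLP and DN1 columns. Pde9a, Rhobtb3, Fbp1 and Susd4 are bright in CLP, DN3 and DN4, Moxd1 and Pcsk1 in DN1 and DN2, and Ddx5 is lowest in the CLP columns.

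Immunoglobulin genes, looked at after their values were seen, were lower in CLP than in DN1 as a group of names. Of 23 measured, 17 were lower in CLP (0 higher), with a median log2 difference of -2.29 against 0.04 over all genes. The share called was 73.9%, against 2.44% of all genes. Their mean level was 4.76 to 4.88 over CLP arrays and 7.16 to 7.49 over DN1 arrays. In DN2, DN3 and DN4 it was 4.97, 4.72 and 4.68, near CLP, and in LSK 6.26. Igkv9-120, a kappa variable segment, was at 3.79, 3.41 and 2.59 in CLP, against 10.78, 10.65 and 10.75 in DN1, at least 34.2-fold lower in CLP (limma adjusted p = 9.58e-06). Iglv1, a lambda variable segment, was at 4.26, 4.00 and 3.83 in CLP and at 9.61, 10.54 and 10.32 in DN1, at least 23.0-fold lower in CLP (limma adjusted p = 1.17e-05). Ighm, the mu heavy chain, remained bright in CLP, at 10.94, 11.10 and 11.26, against 12.87, 13.27 and 13.08 in DN1 (difference -1.97, limma adjusted p = 0.000517). Jchain, which joins secreted IgM and IgA, was at 4.29, 4.96 and 4.11 in CLP and at 8.64, 8.77 and 8.40 in DN1, at least 7.84-fold lower in CLP (limma adjusted p = 7.2e-05). Variable segments are a multigene family whose probes can share transcripts, so single segments are uncertain. The count of lowered genes was 12 to 16 when 1 array was left out.

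Markers of plasma cells and B cells are given beside it. Of 10 plasma cell genes, Jchain was lower and Pou2af1, a B-cell coactivator, higher in CLP (difference 1.02, limma adjusted p = 0.047, lost without CLP array 2 or any 1 DN1 array at 0.0883 to 0.19). Of the plasma cell genes 20% were called, against 2.44% of all genes. Their mean level was 6.10 to 6.11 over CLP arrays and 6.65 to 6.84 over DN1 arrays. Mzb1, a chaperone of antibody secretion, was at 5.83, 5.52 and 5.70 in CLP and at 6.0, 6.29 and 5.96 in DN1, and the plasma cell receptor Tnfrsf17 was below the gauge on all 6 arrays. Of 13 B-cell genes, 0 passed the limma test. An unadjusted p under 0.05 was reached by 2930 of all 22180 genes and by 1 of these 13. Their mean was 4.92 to 5.13 over CLP arrays and 5.00 to 5.20 over DN1 arrays, and Ms4a1, which encodes CD20, was below the gauge throughout. The part of these cells in the result was not tested.

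Among 18 macrophage and monocyte genes, Mrc1, the mannose receptor, was at 4.66, 5.39 and 5.19 in CLP, against 7.93, 7.48 and 8.19 in DN1, at least 4.7-fold lower in CLP (limma adjusted p = 0.000517). The other 17 did not pass, Adgre1, Cd14 and Ccr2 were below the gauge on all 6 arrays, and the mean of the list was 5.50 to 5.52 over CLP arrays and 5.63 to 5.79 over DN1 arrays. Of 15 granulocyte genes, Lcn2 was 1.95-fold lower in CLP (limma adjusted p = 0.0325), lost without all arrays in turn but CLP array 1 (0.0546 to 0.167). The share called was 5.56% of the macrophage and monocyte list and 6.67% of the granulocyte list, against 2.44% of all genes. The dendritic, mast cell, erythroid or megakaryocyte, natural killer and stromal lists had 0 genes past the limma test. An unadjusted p under 0.05 was seen for 2 of 12 dendritic, 1 of 10 mast cell and 0 of 7 erythroid or megakaryocyte genes. For natural killer genes it was 2 of 16 and for stromal genes 1 of 14, against 2930 of all 22180 genes. Of 13 genes of innate lymphoid and gamma delta T cells, Icos alone passed (7.69% called, against 2.44% of all genes). Its call was lost without any 1 DN1 array, as given above. Of 15 immediate early and stress genes 0 passed, 4 of them with an unadjusted p under 0.05. Cpa3, a mast cell and early progenitor protease, was at 10.36, 9.41 and 10.78 in CLP and at 9.08, 8.67 and 8.52 in DN1, without overlap (adjusted p = 0.059).

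The called genes were set beside the other fractions as a description, since they were chosen on the CLP arrays. The 243 genes higher in CLP had a median level of 8.43 in CLP and 6.80 in DN1, while DN2 stood at 7.44, DN3 at 8.50, DN4 at 8.35 and LSK at 6.76. The 298 lower genes had a median of 6.24 in CLP and 7.84 in DN1, while DN2 stood at 7.18, DN3 at 6.29, DN4 at 6.20 and LSK at 7.48. In separate fits that share the 3 CLP arrays, CLP differed from DN2 in 197 genes (0.888%), from DN3 in 11 (0.0496%) and from DN4 in 19 (0.0857%). At an unadjusted p under 0.05 the counts were 2473, 1721 and 2134, against 2930 for DN1. Without CLP array 1 the called counts were 478 for DN2, 44 for DN3 and 380 for DN4, and without CLP array 2 that for DN3 was 6. Whether these counts differ from each other was not tested. The array correlations of CLP had means of 0.964 with DN1, 0.975 with DN2, 0.978 with DN3 and 0.977 with DN4. Among the CLP arrays themselves the mean was 0.970, so they were less alike than CLP was to DN2, DN3 or DN4.

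Igfbp4 and Muc13, named after their values were seen, were among the genes that separated CLP from both DN1 and DN3. Igfbp4, which binds insulin-like growth factors, was at 7.92, 8.12 and 8.05 in CLP and at 10.77, 10.97 and 10.56 in DN1, and averaged 9.82 in DN2, 6.74 in DN3 and 6.51 in DN4 (limma adjusted p = 9.28e-05 against DN1 and 0.0364 against DN3). Muc13, a membrane mucin, was at 8.39, 8.64 and 8.57 in CLP and at 10.98, 11.03 and 10.95 in DN1, with DN3 at 6.86 (9.73e-05 against DN1 and 0.0262 against DN3). In both genes CLP lay between DN1 and DN3. Atp8a2 and Drd5 also passed both tests, with CLP above DN1 and below DN3. They averaged 8.29 and 7.76 in CLP, 5.69 and 6.25 in DN1, and 9.97 and 9.47 in DN3. Their limma adjusted p was 0.000721 and 0.00725 against DN1, and 0.0364 and 0.0182 against DN3. Mir505 and Mir5123, given below, passed both tests too. Kit averaged 9.43 in CLP, 10.77 in DN1 and 8.06 in DN3, where the difference did not pass (adjusted p = 0.0625).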

How the data were processed

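RNA of the sorted fractions was measured on Affymetrix mouse gene arrays, 3 per group, after RNeasy Micro extraction and WT Pico amplification, per the labels' protocols. The authors deposited 1 log2 value for each probe set and array after RMA in oligo, per the submitters' processing notes (no version given), and these were not transformed further. The table held 41345 probe sets with 0 missing values: 23521 with 1 gene symbol, 1814 with several and 16010 with none. Probe sets with several symbols or none were left out, and the probe set brightest over all 18 arrays stood for each of 22180 genes; 1082 genes had several. No genome build of the probe sets is given in the sources used here.

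CLP minus DN1 was fitted with limma 3.58.1 (R 4.3.3; lmFit and eBayes, two-sided) on the 6 arrays without covariates, with Benjamini-Hochberg adjustment over all genes and a threshold of 0.05. CLP was set against DN2, DN3 and DN4 in fits of the same kind. A gene is called where it passed this threshold. SE is limma's standard error. A gene below the 95th percentile of olfactory receptor genes on every array of a fraction has only a bound there. Its fold is then given as "at least", from the mean of the brighter fraction over the mean, per dim array, of the higher of the gauge and the gene's own value.

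The members and gene lists were chosen with earlier results of these data known. Named genes were the 12 largest rises and 12 largest falls among called genes without overlap (leaving out predicted, small RNA, olfactory and receptor segment genes), up to 4 genes of each list with the smallest p, all sort marker, normal CLP and normal DN1 genes, and Zc3hc1, Alk, Npm1, Xist and Eif2s3y. Other list members were named with their values as further examples. Immunoglobulin genes, Igfbp4, Muc13, Atp8a2, Drd5, Mir505, Mir5123 and Snora34 were named after their values were seen. The replicate numbers of CLP and DN1 did not pair: deviations of same-numbered arrays correlated at -0.19, -0.04 and -0.02. With CLP they correlated at 0.13, 0.01 and 0.31 for DN2, and at 0.05, 0.10 and 0.12 for DN3. For DN4 they were 0.17, 0.025 and 0.29. With DN3, every CLP array correlated best with its own number. The main fits against these fractions did not use the numbers. Nothing in the labels says which arrays share a mouse, so p-values measure the spread between these arrays. On simulated data for CLP minus DN1 with 22180 genes, the code recovered 38 of 100 genes changed by log2 1 and 83 of 100 changed by log2 2, with 4 false calls among 125. Alternatives were a filter on dim genes (3 or more arrays over the array median), the mean of probe sets, quantile normalization, a trended and robust prior, array weights, all 15 lymphoma arrays in 1 model, the replicate number as a block, and leaving out each array.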

Additional observations from a re-analysis of the deposited data

How the results depend on the processing

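CLP against DN1 gave 541 called genes, 243 higher and 298 lower in CLP. With all 15 lymphoma arrays in 1 model the counts were 1726, 782 and 944. With the replicate number as a block they were 326, 132 and 194. Without each array in turn they were 232 to 936, 96 to 470 and 127 to 466. The filter, quantile normalization, mean of probe sets, prior and array weights gave 490 to 714 in all. Against DN2 (197 called) the 15 arrays gave 636 and leaving out a CLP array 201 to 478. Against DN3 (11) the 15 arrays gave 243, the block 6 and leaving out a CLP array 6 to 44. Against DN4 (19) these were 237, 40 and 19 to 380. The cause was not tested. Of 63 called named genes, 41 kept their call in all 13 alternatives, Il22 kept it in the 12 that tested it, and 0 changed sign; the block lost 14 of them. Among genes that did not pass, the log2 difference changed sign for Npm1 (-0.16 with the mean of probe sets), Cd79b (-0.012 after quantile normalization, -0.15 to 0.27 over the left-out arrays) and, over the left-out arrays, Blnk (-0.29 to 0.045), Cd79a (-0.44 to 0.19), Klf1 (-0.20 to 0.32) and Pf4 (-0.0596 to 0.18). List and immunoglobulin counts under the alternatives, and calls of single list members without an array, were added after seeing the data. With 3 arrays per fraction, differences near log2 1 are often missed. The means of 25 called genes lay below 5.71, the highest background gauge of the 6 arrays, in both fractions.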

Other observations

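Of the small RNA genes, Mir505, a microRNA gene on the X chromosome, was at 3.50, 3.41 and 3.85 in CLP, against 6.02, 6.57 and 6.72 in DN1, and averaged 6.57 to 7.29 in the other groups. Mir5123 was at 3.73, 3.57 and 3.90 in CLP and at 6.13, 5.81 and 4.54 in DN1, and averaged 5.41 to 7.20 in the other groups. Both passed the limma test against DN1 (adjusted p = 0.000305 for Mir505 and 0.037 for Mir5123) and against DN3 (0.00409 and 0.000429). In all, 1 of 483 microRNA genes was higher and 6 were lower in CLP than in DN1, 1.45% called against 2.44% of all genes. Without each array in turn, 0 to 4 were higher and 1 to 18 lower. Snora34, a small nucleolar RNA gene, was at 10.73, 10.95 and 11.08 in CLP and at 10.61, 8.63 and 8.66 in DN1, where array 1 lay next to the CLP arrays. It did not pass against DN1 (limma adjusted p = 0.135) and passed against DN3 (0.00465). Of 63 ribosomal protein genes, 0 passed the limma test against DN1. An unadjusted p under 0.05 was reached by 7 of them, against 2930 of all 22180 genes.

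In both CLP and DN1, Xist was below the background gauge and Eif2s3y above it. Xist, which silences an X chromosome in females, was at 3.81, 4.09 and 3.95 in CLP and at 4.72, 4.32 and 5.03 in DN1, below the background gauge, while LSK averaged 8.10. Eif2s3y, a gene of the Y chromosome, was at 9.07, 8.74 and 9.15 in CLP and at 9.44, 8.89 and 9.26 in DN1. It averaged 9.12 in DN2, 8.95 in DN3 and 8.97 in DN4. On the LSK arrays it varied, at 8.42, 7.43 and 4.69.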
